A study of Mus musculus with 2 samples.

Results

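Mitosis genes encode the proteins that condense, attach, separate and repackage chromosomes and that cut the cell in 2 at the end of division. The 51 genes described here form a list of G2 and mitotic genes given by name. All 51 are rows of both deposited gene-by-cell tables, out of 14366 genes in each table. They were read across all cells of 2 single-cell RNA libraries of mouse hematopoietic stem cells (HSC), the bone marrow cells that renew the whole blood system. Wildtype C57/B6 mice aged 6 to 8 weeks supplied the marrow, which was pooled from 8 animals. Cells were sorted as Lin−Sca-1+c-Kit+CD150+CD48−, the surface type of long-term HSC. Both cultures contained stem cell factor (SCF, 100 ng/ml) among their shared additives, and both ran for 48 h. The vehicle culture received sterile water and the DFO culture received 10 µM deferoxamine (DFO), an iron chelator. Each condition has 1 library, so differences between the libraries have no replicate check and no test was run. Intervals below are exact 95% intervals for counting error only, and each library stands for 1 culture of cells from pooled animals.

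Entry into mitosis is driven by the kinase CDK1 bound to a B-type cyclin, with small Cks subunits that dock the complex on its substrates. Exit follows when the anaphase-promoting complex, a ubiquitin ligase activated by CDC20 and fed by the ubiquitin-conjugating enzyme UBE2C, destroys the cyclins and frees the chromosomes to separate. Many of these genes are transcribed in a wave that begins in late S phase and peaks in G2 and mitosis. HSC are mostly quiescent in the marrow, and growth factors such as SCF push them into the cycle in culture. Iron is a cofactor of ribonucleotide reductase, the enzyme that supplies deoxynucleotides for S phase. Megakaryocytes, the platelet-forming descendants of HSC, become polyploid by endomitosis, a mitosis that ends without cutting the cell.

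The 51 genes were sorted by general knowledge of their timing. The early list of 15 holds genes whose transcripts are known to climb in late S and G2, among them Cdk1, Top2a (which untangles DNA), Smc4 and Ncapd2 (condensin), Hmgb2 (a chromatin protein) and Kif11 (the motor that pushes spindle poles apart). The late list of 22 holds genes known to peak at the G2/M boundary or in mitosis, among them Cdc20, Ube2c, Ccnb2 (cyclin B2), Aurka, Cenpa, Cenpe, Cenpf and the cytokinesis genes Ect2 and Kif23. The other 14 were left without a timing class, among them Mki67, Birc5, Aurkb, Cks2, Nusap1 and Ckap2l. According to the GENCODE M21 annotation of GRCm38, 4 members overlap a gene of the opposite strand that was itself at 5 CPM or more: Rangap1 with Zc3h7b, Cdc20 with Elovl1, Nusap1 with Oip5 and Tacc3 with Tmem129. The sources used here do not state how reads of such pairs, or of families with closely similar members such as Hmgb2 and Tubb4b, were assigned.

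The vehicle table held 8708 cells with a median of 27806 molecules, and that of DFO held 9852 cells with a median of 27114. The tables shared 24 cell barcodes. A doublet caller marked only 3 and 2 cells, so it had not worked, and an alternative run left out 820 and 925 cells with molecules of both sexes or a doublet score in the top 8%. Of the 15 HSC marker genes, 13 reached 5 CPM (molecules of a gene scaled to the library's total, the usual counts-per-million unit), with summed levels of 531 CPM in the vehicle library and 560 CPM in the DFO library. Of 11 measured megakaryocyte markers, 8 did, and their summed level was 1707 CPM with vehicle and 747 CPM with DFO. All 11 were lower with DFO, and the values stand again beside the result they go with.

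Many G2 and mitotic promoters carry a short element near the start site, the cell cycle genes homology region, often near a CCAAT box. RefSeq promoter windows on GRCm38.p6, from 250 bases before to 50 after the start, were found for 45 of the 51 members (50 windows). Tpx2, Smc4, Aurkb, Cdc25c, Dlgap5 and Cdca2 had no entry. The letters TTTGAA, on either strand, occurred in 33 of 50 member windows (66.0%), against 17.9% of all 32851 windows of that length. TTCGAA, which reads the same on both strands, occurred in 5 member windows (10.0%), against 1.56% of all. CCAAT, on either strand, occurred in 38 member windows (76.0%), against 37.4% of all. Windows with CCAAT and with either of the other motifs made up 62.0% of member windows and 7.52% of all. CCAAT was in 11 of 16 windows of early genes (68.8%) and in 21 of 23 windows of late genes (91.3%), while TTTGAA was in 12 and 14 of them. Matches may share bases with a neighbouring match. A match is a description of letters and not a measured binding site.

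The sequences below are the 150 bases upstream of the RefSeq start, 5′ to 3′ on the coding strand, with matches in capitals. The motif TTTGAA reads as TTCAAA on the other strand, the motif CCAAT reads as ATTGG, and the motif TTCGAA reads the same. Cdk1, Top2a and Kif11 stand for the early list and Cdc20 and Cenpf for the late list. Nusap1 had the largest difference along the mitotic ranges described below. Ckap2l, Ect2 and Kif23 were the 3 members that differed most between the megakaryocyte-like cluster, also described below, and other cells. For Ect2, with 2 annotated starts, the more upstream was used.
Cdk1 (chr10:69352913-69353062, minus strand): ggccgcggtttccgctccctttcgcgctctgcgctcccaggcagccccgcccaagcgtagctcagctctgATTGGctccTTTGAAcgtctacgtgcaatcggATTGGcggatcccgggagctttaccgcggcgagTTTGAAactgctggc
Top2a (chr11:99024190-99024339, minus strand): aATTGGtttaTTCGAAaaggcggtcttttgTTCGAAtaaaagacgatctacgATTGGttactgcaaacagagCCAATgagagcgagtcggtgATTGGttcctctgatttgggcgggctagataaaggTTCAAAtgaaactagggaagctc
Kif11 (chr19:37376232-37376381, plus strand): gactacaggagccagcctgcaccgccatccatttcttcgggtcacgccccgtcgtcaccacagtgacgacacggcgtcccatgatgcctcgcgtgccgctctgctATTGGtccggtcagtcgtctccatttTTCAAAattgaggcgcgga
Cdc20 (chr4:118437344-118437493, minus strand): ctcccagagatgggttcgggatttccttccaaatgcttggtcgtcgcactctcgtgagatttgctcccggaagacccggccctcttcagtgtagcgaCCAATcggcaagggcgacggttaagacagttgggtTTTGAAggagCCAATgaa
Cenpf (chr1:189688087-189688236, minus strand): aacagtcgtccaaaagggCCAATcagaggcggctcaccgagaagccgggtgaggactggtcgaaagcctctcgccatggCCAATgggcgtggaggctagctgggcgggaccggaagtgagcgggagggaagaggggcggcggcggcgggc
Nusap1 (chr2:119618148-119618297, plus strand): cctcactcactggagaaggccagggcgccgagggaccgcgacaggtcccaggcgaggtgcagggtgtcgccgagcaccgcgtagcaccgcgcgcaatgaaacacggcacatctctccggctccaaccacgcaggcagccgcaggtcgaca
Ckap2l (chr2:129297213-129297362, minus strand): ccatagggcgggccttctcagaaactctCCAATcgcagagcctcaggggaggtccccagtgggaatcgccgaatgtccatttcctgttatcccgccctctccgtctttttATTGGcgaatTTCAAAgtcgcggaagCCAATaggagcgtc
Ect2 (chr3:27153879-27154028, minus strand): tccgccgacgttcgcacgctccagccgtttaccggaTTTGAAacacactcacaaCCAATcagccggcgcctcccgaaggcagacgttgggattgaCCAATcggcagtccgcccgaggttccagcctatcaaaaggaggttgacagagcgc
Kif23 (chr9:61946800-61946949, minus strand): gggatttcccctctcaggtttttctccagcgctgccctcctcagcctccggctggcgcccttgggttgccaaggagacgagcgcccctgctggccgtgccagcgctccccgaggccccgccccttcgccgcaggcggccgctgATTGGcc

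In Cdk1 the 2 TTTGAA matches began 71 and 15 bases upstream of the start. In Top2a TTCGAA began 140 and 120 bases upstream and TTTGAA, read on the other strand, 23. On either strand, TTTGAA began 19 bases upstream in Kif11, 18 in Cdc20, 30 in Ckap2l and 114 in Ect2. The windows shown for Cenpf and Kif23 held CCAAT only, and that for Nusap1 held none of the 3 motifs, which says only that these letters were not in those 150 bases.

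To follow the members along the cycle without using them, cells were ranked by genes that are no members. The S anchors were 25 DNA replication genes and the late anchors 16 mitotic genes such as Plk1 and Ccnb1, counted in cells thinned to 10000 molecules. Reference cells were at or below the median for both sums, S-range cells were in the top 25% for S anchors but not for late anchors, middle cells lay between the 75th and 95th percentile for late anchors, and top cells above the 95th. In the vehicle library these ranges held 1257, 1950, 1599 and 336 cells, and in the DFO library 1348, 2193, 1861 and 386. The 351 vehicle and 433 DFO cells with fewer than 10000 molecules were left out. Median molecules per cell were 19823, 27094, 37011 and 35319 over the 4 vehicle ranges. The part of depth in the comparison was not tested, but all levels here are in CPM of a range.

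The members separated into 2 shapes over these ranges. In S-range cells 13 of the 15 early genes were above the reference in both libraries, against 38.0% of all 8845 genes at 5 CPM or more with the anchors left out, while 17 of the 22 late genes were below it in both, against 44.8%. Ckap5, a microtubule polymerase on the early list, was the early gene that was lower in both, and Dlgap5, Bub1 and Ttk were the late genes that were higher in both, so the textbook assignment did not hold for every gene. The median early gene stood 0.29 (vehicle) and 0.15 (DFO) log2 units above the reference in the S range, and the median late gene stood at -0.29 and -0.34. In the top range the early medians were 1.04 and 0.96, and the late medians 2.18 and 1.96.

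**Figure D1:**
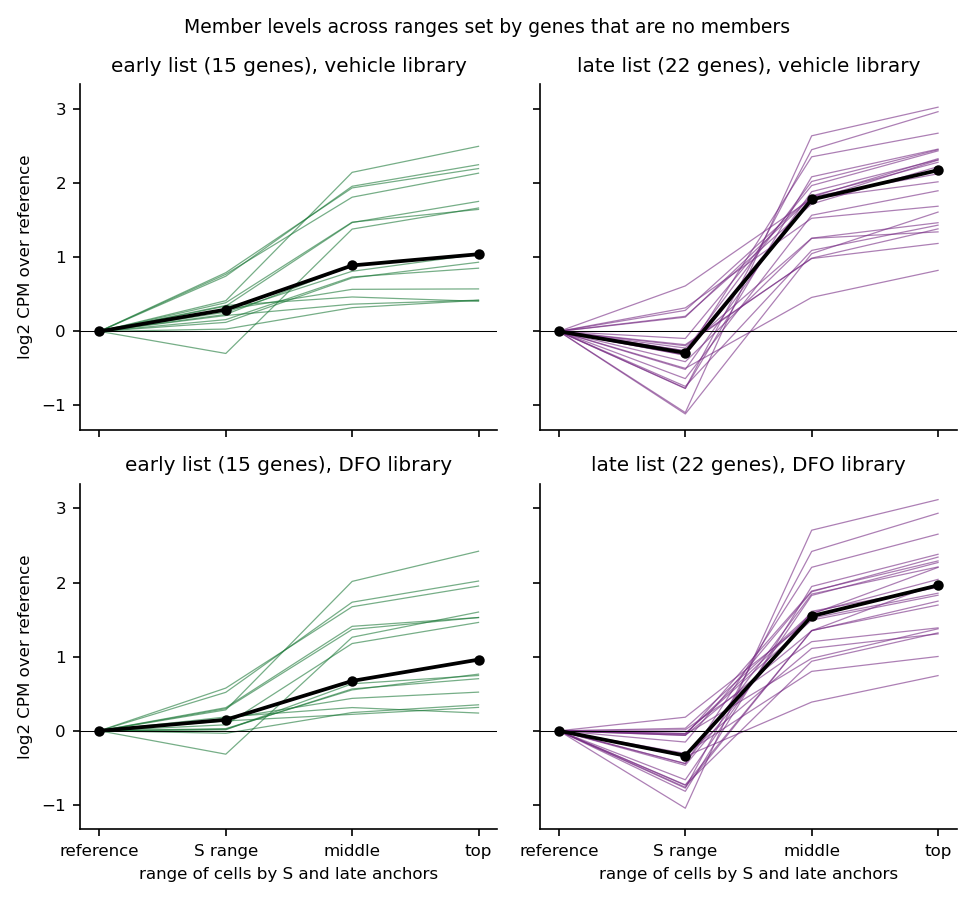
Each thin line is 1 gene: its CPM in the S range, the middle range and the top range over its CPM in reference cells, as a log2 difference (y axis), in the vehicle (upper panels) and DFO library (lower panels). Black lines are medians over the 15 early and 22 late genes. Early medians are above 0 in the S range (0.29 and 0.15) and late medians below 0 (-0.29 and -0.34), and both are higher in the middle and top ranges.

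Cdk1 was the clearest early gene. Its level in vehicle cells was 105 CPM in the reference, 182 in the S range, 403 in the middle and 483 in the top range, and in DFO cells 124, 185, 398 and 483 CPM. Its level was thus above the reference in S-range cells of both libraries. Top2a ran in parallel, with 169, 283, 659 and 806 CPM in vehicle cells and 193, 277, 646 and 787 CPM in DFO cells. Ndc80, an outer kinetochore protein that grips microtubules, was 0.77 above the reference in the S range with vehicle and 0.31 with DFO. Cdca2, a phosphatase-targeting protein without a timing class, had the highest S-range value with vehicle (0.80), and Anln, the furrow protein anillin, came after Cdk1 (0.58) and Top2a (0.52) with DFO, at 0.51. At 0.5 or more in the S range were 7 members with vehicle and 3 with DFO, where 3.05% and 1.29% of all genes were.

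Hmgb2 and Cks1b, also early, differed less between ranges. Hmgb2 was at 947, 1030, 1562 and 1809 CPM over the 4 vehicle ranges and at 1203, 1228, 1764 and 2044 CPM over the DFO ranges. Cks1b was at 316, 353, 527 and 572 CPM with vehicle and at 354, 359, 525 and 577 CPM with DFO. The smallest top-range differences belonged to early genes of chromatin and the nuclear envelope: Cbx5 (heterochromatin protein 1 alpha) at 0.41 and 0.24, Lbr (lamin B receptor) at 0.42 and 0.35, and Anp32e (a histone chaperone) at 0.42 and 0.32 in vehicle and DFO.

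Ube2c showed the late shape most strongly. It was at 154 CPM in vehicle reference cells, 71.4 in the S range, 962 in the middle and 1258 in the top range, and the DFO values were 138, 66.2, 904 and 1203 CPM. Its partner Cdc20 was at 121, 77.1, 359 and 452 CPM with vehicle and at 144, 84.4, 369 and 468 CPM with DFO. Both genes were thus lowest in the S range in both libraries. Aurka, the spindle pole kinase, was at 24.6, 19.4, 130 and 162 CPM with vehicle and at 27.5, 19.96, 131 and 178 CPM with DFO. Cenpa, the histone variant that marks centromeres, was at 207, 123, 443 and 561 CPM with vehicle and at 211, 126, 405 and 528 CPM with DFO. Psrc1, a spindle protein, had the lowest S-range value with vehicle (-1.11), and Ube2c the lowest with DFO (-1.04). Hmmr, a spindle assembly factor, was at -0.77 and -0.82, and Cdc25c at -0.73 and -0.87.

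Nusap1, a spindle-bundling protein, had the largest top-range difference of all members, 3.28 with vehicle and 3.24 with DFO. Ube2c followed at 3.03 and 3.12, and then Cenpf, a kinetochore and nuclear matrix protein, at 2.96 and 2.94. Nusap1 molecules were at 31.0, 26.3, 228 and 310 CPM over the vehicle ranges. Mki67, the perichromosomal protein used as a proliferation marker, was at 142, 172, 482 and 581 CPM with vehicle and at 151, 165, 446 and 553 CPM with DFO. Cks2 was at 480, 406, 996 and 1132 CPM with vehicle and at 520, 411, 1028 and 1179 CPM with DFO. Unlike its family member Cks1b, Cks2 was lower in the S range than in the reference in both libraries, at -0.24 and -0.34.

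Ccnb2 stood out among late genes by its small range. Its levels were 153, 108, 210 and 271 CPM with vehicle and 143, 112, 187 and 240 CPM with DFO, a top-range difference of 0.82 and 0.75, the lowest of the 22 late genes in both libraries. Ccnb1, the other mitotic B cyclin and a late anchor, cannot be compared on this scale because it set the ranges. In all, 44 members with vehicle and 42 with DFO were at least 2-fold higher in the top range than in the reference, against 1.79% and 1.58% of all genes.

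From the middle to the top range the late genes differed more than the early ones. The median late gene was 0.38 (vehicle) and 0.40 (DFO) higher in the top range, and the median early gene 0.21 and 0.16, with Cbx5 lower at -0.058 and -0.074. Psrc1 had the largest value in both libraries, 0.56 and 0.64. At 0.5 or more were 6 members with vehicle and 4 with DFO, none of them on the early list, against 0.531% and 0.384% of all genes. With vehicle these were Psrc1, G2e3, Nek2, Cenpf, Ect2 and Ckap2, and with DFO Psrc1, Nek2, Nusap1 and Cenpf.

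Across cells the members varied together, which describes these cells and was not tested. A level above the reference in the S range did not mean rising with the S anchors cell by cell. Pearson r with the summed S anchors in thinned cells was -0.064 (vehicle) and -0.13 (DFO) for Cdk1 and -0.099 and -0.16 for Top2a. Of the early genes only Anp32e (0.029 and 0.013) and Cbx5 (0.076 and 0.028) were positive in both libraries. Over all 1275 pairs the median Pearson r of thinned counts was 0.18 in vehicle cells and 0.16 in DFO cells, with Cenpf and Ube2c the closest pair in both (0.67 and 0.68, over 8357 and 9419 cells that share a library and a depth). Outside the list, the genes most like the summed members were Ccnb1 (r 0.64 in both), Ube2s (0.64 and 0.62), Prc1, H2afx, Plk1, Tubb5, Tuba1c, Ccna2, Arl6ip1 and Kif22, ranked by the lower r of the 2 libraries.

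Between the libraries most members differed little. All 51 reached a mean of 5 CPM. The median member was 0.0079 higher with DFO (log2 of CPM + 1), against 0.019 for all 8886 genes at that level, and 27 were higher and 24 lower, where 57.9% of all genes were higher. The counting intervals of the 2 libraries were apart for 18 members in the higher direction and for 18 in the lower, against 32.7% and 21.4% of all genes, and overlapped for 15. No member was higher by 0.25 or more (1.4% of all genes were) and 1, Ckap2l, was lower by as much (2.58% of all genes were).

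**Figure D2:**
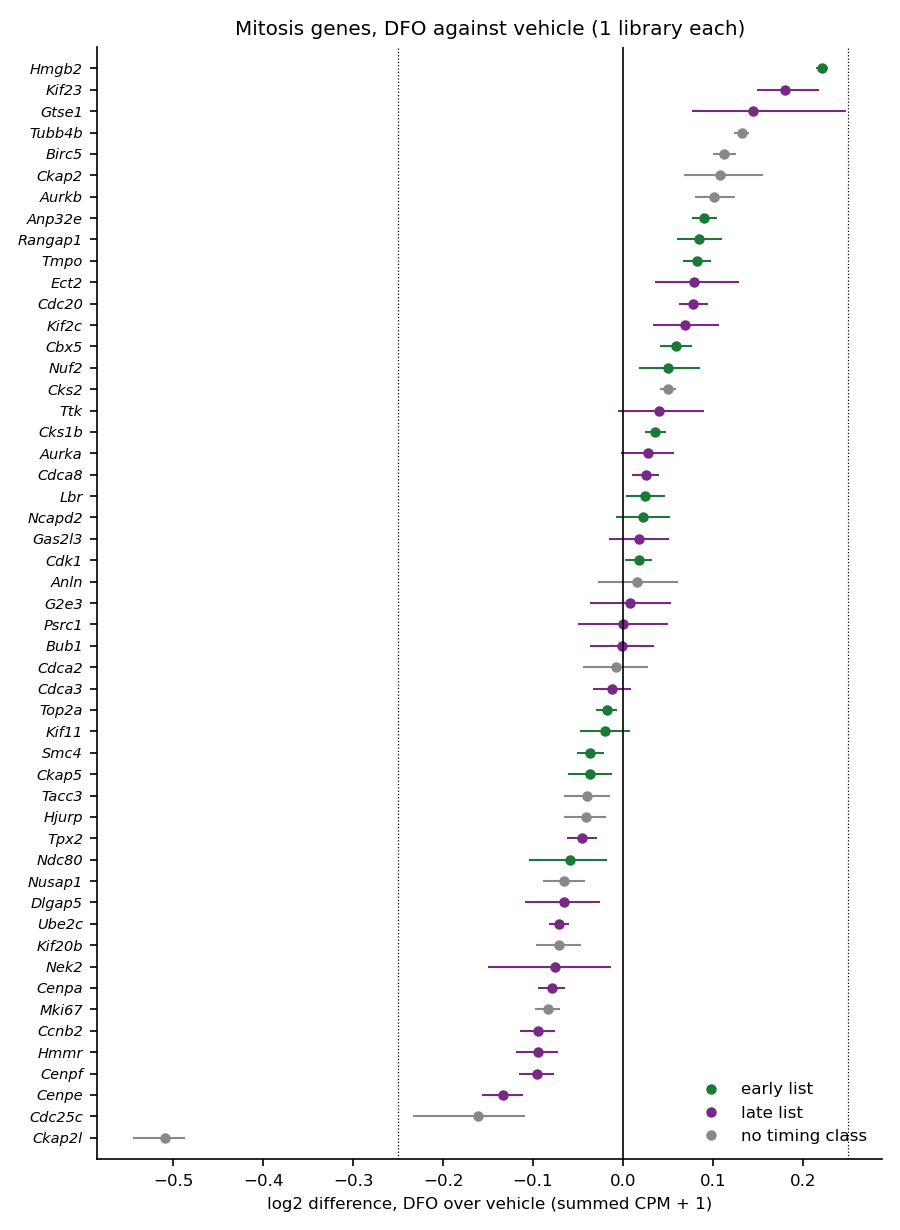
Points give each member's log2 difference, DFO over vehicle, from CPM + 1 summed over all cells, and bars its 95% counting interval (x axis; dotted lines at -0.25 and 0.25), coloured by timing class. Ckap2l at -0.51 lies apart from the other 50 members, which run from -0.16 (Cdc25c) to 0.22 (Hmgb2).

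Ckap2l, a microtubule-binding spindle protein, was at 85.5 CPM (84.4 to 86.7) with vehicle and at 59.8 CPM (58.9 to 60.7) with DFO, a difference of -0.51. Summed megakaryocyte markers were lower too, at 1707 and 747 CPM, and without the megakaryocyte-like cells described below the difference was -0.13. The next lowest were Cdc25c, the phosphatase that switches CDK1 on, at 16.3 and 14.5 CPM (-0.16), and Cenpe, the kinetochore motor that carries chromosomes to the metaphase plate, at 118 and 108 CPM (-0.13).

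Hmgb2 was at 1249 CPM (1245 to 1254) with vehicle and at 1456 CPM (1452 to 1461) with DFO, the highest difference at 0.22. Kif23, the motor of the central spindle in cytokinesis, was at 45.7 and 52.0 CPM (0.18), and Gtse1, a G2 microtubule protein, at 7.68 and 8.59 CPM (0.14). Their counting intervals did not overlap between the libraries.

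The CDK1 engine was nearly level. Cdk1 was at 254 CPM (253 to 256) with vehicle and 258 CPM (256 to 259) with DFO, and its intervals overlapped. Ccnb2 was at 159 and 149 CPM (-0.095). Cks1b was at 424 and 435 CPM (0.036) and Cks2 at 683 and 708 CPM (0.050). With Cdc25c, the 5 genes had a median of 0.017 and summed to 1537 CPM with vehicle and 1563 CPM with DFO.

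Of the 6 kinetochore and centromere members 5 were lower, with a median of -0.069, while of 24 other kinetochore and centromere genes 14 were higher and 10 lower, with a median of 0.023. Besides Cenpe, Cenpf was at 163 and 152 CPM (-0.095), Cenpa at 279 and 264 CPM (-0.079), Ndc80 at 31.8 and 30.5 CPM and Hjurp, the chaperone that loads Cenpa, at 110 and 107 CPM. Only Nuf2, the partner of Ndc80 in the same complex, was higher, at 50.6 and 52.4 CPM (0.051). The intervals were apart for 4 of the 5 lower genes, the exception being Ndc80, where 21.4% of all genes were lower with intervals apart.

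The chromosomal passenger complex, which corrects wrong attachments and later guides cytokinesis, has 3 genes on the list, and all 3 were higher, where 57.9% of all genes were. Aurkb, its kinase, was at 111 and 119 CPM (0.10). Birc5 (survivin) was at 345 and 373 CPM (0.11) and Cdca8 (borealin) at 266 and 271 CPM (0.025). All 3 had intervals apart, as 32.7% of all genes had in that direction. Incenp, the scaffold of the complex and outside the list, was at 93.1 and 95.5 CPM. The mitotic kinases differed little. Aurka was at 67.3 and 68.6 CPM (0.028), and the checkpoint genes Bub1 and Ttk differed by -0.00095 and 0.041, with overlapping intervals for all 4 kinases of that group, Nek2 included.

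In chromosome structure 4 genes were higher and 4 lower. Top2a was at 421 and 416 CPM (-0.018), Smc4 at 279 and 272 CPM (-0.036) and Mki67 at 303 and 285 CPM (-0.083), while Anp32e was at 295 and 314 CPM (0.091). Among the ubiquitin genes Cdc20 was at 209 and 221 CPM (0.078) and Ube2c at 445 and 423 CPM (-0.071), so the activator and the conjugating enzyme of the same ligase differed in opposite directions with intervals apart. The 15 spindle genes ran from Ckap2l to Gtse1, with 8 lower and 7 higher, and Tubb4b, a beta-tubulin, was at 756 and 829 CPM (0.13).

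Grouped by timing, early genes summed to 3894 CPM with vehicle and 4150 CPM with DFO (0.092), and 10 of 15 were higher. Hmgb2, at 1249 and 1456 CPM, had the largest difference in CPM among them. Late genes summed to 2513 and 2458 CPM (-0.031), and 11 of 22 were higher. The median early gene was at 0.025 and the median late gene at -0.00029. The sign of the late median depends on how cells are combined, and no direction is read from it.

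Pathway genes outside the list, chosen by function, also differed little. Of 86 other cyclins, kinases, checkpoint, cohesin, kinetochore, kinesin and regulator genes measured, 85 of them at 5 CPM or more, 53 were higher with DFO (median 0.020), none past 0.25 in either direction. Kifc1, a minus-end spindle motor, was lowest at 11.7 and 9.80 CPM (-0.24), and Cep55, which recruits the abscission machinery to the midbody, was highest at 24.3 and 27.7 CPM (0.18). Of 25 S anchors, 23 were higher, with a median of 0.11.

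Summed within single cells, the late genes had the same median in both libraries, 17 molecules per 10000, but different upper ends. The 90th percentile was 50 with vehicle and 48 with DFO, and the 95th 58 and 55. Cells with 50 or more late molecules made up 10.6% (9.94 to 11.3) of vehicle cells and 9.16% (8.59 to 9.76) of DFO cells, and 3.90% and 4.08% of cells lay within 2 molecules of that line. The early sums were higher with DFO over most of the range. They were 14 and 18 molecules at the 5th percentile, 36 and 38 at the median and 63 and 65 at the 95th. Those sums hold Hmgb2, at 1249 and 1456 CPM over all cells, of 3894 and 4150 CPM for the early list. Per-cell sums without Hmgb2 were not made, so no rise of the early list as a whole is read from these. Cells with 57 or more early molecules made up 10.3% (9.61 to 10.9) and 12.8% (12.1 to 13.4). No cell lacked early molecules, and 58 vehicle and 56 DFO cells had no late molecule in 10000. These classes are ranges of a count and not cell types.

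**Figure D3:**
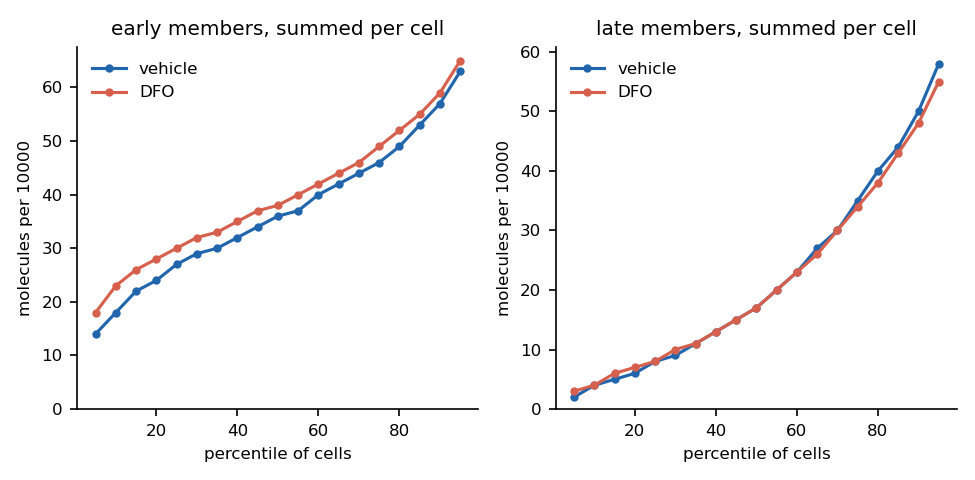
Molecules of the early (left) and late genes (right) per 10000 molecules of a cell (y axis) at each percentile of cells (x axis), for 8357 vehicle and 9419 DFO cells. The DFO line lies above the vehicle line for early genes, Hmgb2 included (38 against 36 at the median). The late lines meet at 17 and part at the upper end (48 against 50 at the 90th percentile).

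The share of cells in each range was compared with the vehicle library's limits in both, a choice made after the data were seen. Reference cells, low for S and late anchors, were 15.04% (14.3 to 15.8) of vehicle cells and 9.26% (8.68 to 9.86) of DFO cells. S-range cells were 23.3% (22.4 to 24.3) and 30.1% (29.2 to 31.0). The middle range held 19.1% and 19.8%, and the top range 4.02% (3.61 to 4.46) and 4.10% (3.71 to 4.52), with overlapping intervals. The level of the S anchors sets the first 2 shares, and in the sums above those anchors were higher with DFO in 23 of 25 cases.

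Within ranges, the members' differences depended on the range. With the vehicle limits, 38 of 51 members were higher with DFO among reference cells (median 0.083), where 56.9% of all genes were, and 37 among S-range cells (0.043), where 57.9% were. With each library's own limits, as used for the levels above, 42 were higher among reference cells (median 0.15), where 53.5% of all genes were, and 29 among S-range cells (0.025), where 57.7% were. The S-range count with own limits was thus near the share of all genes. Among middle and top cells, whose limits were the same in both libraries, the members were not higher on balance, at 21 and 19 of 51 (medians -0.019 and -0.016), where 55.0% and 54.8% of all genes were. With the vehicle limits Cdk1 differed by 0.057, 0.012, -0.019 and -0.00088 over the 4 ranges. Hmgb2 was higher in each range, by 0.31, 0.26, 0.18 and 0.18, and Cenpe was lower in each, by -0.044, -0.14, -0.13 and -0.12.

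Cells were then grouped into 7 clusters from genes that do not follow the cycle, with the members and 1373 genes that track them or the S anchors left out. A cluster was named only from markers. Cluster 3, with Pf4, Clec1b and Treml1 among its leading genes, was megakaryocyte-like, also led by the cytokine gene Il1b, and took up 15.8% of the vehicle library and 9.18% of the DFO library. Cluster 4, with Procr, Ly6a and Sult1a1, was HSC-like (10.8% and 11.0%), and cluster 6, with Mpo, Ctsg, Elane and Ms4a3, and also the mast cell or basophil marker Mcpt8, was neutrophil-monocyte-like (132 and 100 cells). Clusters 0 (led by Bex6 and Cd27), 1 (Slc7a8, Klf1 and Gata1 among its leading genes), 2 (Egln3 and Bnip3) and 5 stayed unnamed. Cluster 5 had a median of only 7049 molecules.

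Every cluster expressed the members. Their summed level in vehicle cells was 9632 CPM in the megakaryocyte-like, 8583 CPM in the neutrophil-monocyte-like and 8229 CPM in the HSC-like cluster, and in DFO cells 9778, 8871 and 8807 CPM. Median depths of the 3 clusters were 35778, 25381 and 24244 molecules per cell. In the megakaryocyte-like cluster 31 members were higher than in all other cells in both libraries (44.8% of all genes were) and 16 lower (45.3%), with medians of 0.10 and 0.093. In the HSC-like cluster 11 were higher (47.5%) and 33 lower (40.1%), with medians of -0.14 and -0.085, and 13 of the 15 early genes were lower in both libraries with none higher in both. The DFO median changed sign at a finer clustering (0.016 at resolution 1.0), and both medians were lower with cell cycle genes kept in the clustering (-0.90 and -0.79), while the vehicle median was -0.070 at resolution 0.25. The neutrophil-monocyte-like cluster had 7 higher (21.3%) and 35 lower (51.4%), with medians of -0.12 and -0.13.

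**Figure D4:**
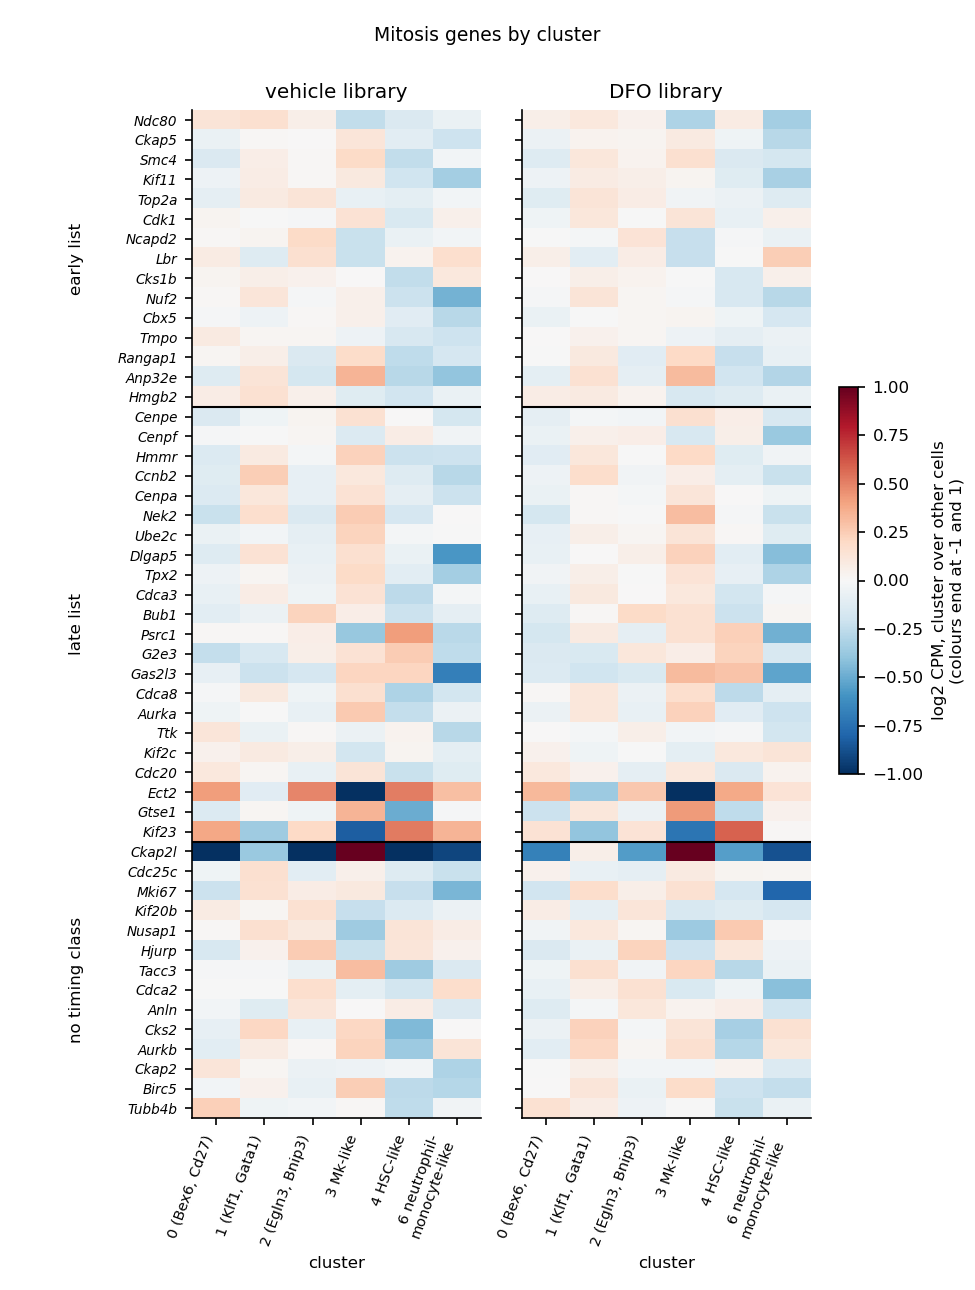
Each row is a member and each column a cluster, in the vehicle (left) and DFO library (right). Colour is the log2 difference in CPM between the cluster and all other cells, ending at -1 and 1, with cluster 5 left out. Ckap2l, Ect2 and Kif23 stand out in the megakaryocyte-like column at 1.96, -1.93 and -0.82 with vehicle, and most other members are pale.

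Most named members lay on the same side as these medians, with small steps. In the megakaryocyte-like cluster Cdk1 was 0.15 and 0.13 above other cells with vehicle and DFO, Cdc20 0.13 and 0.11, Aurka 0.26 and 0.23, Cenpa 0.14 and 0.12, Mki67 0.099 and 0.15 and Cks2 0.21 and 0.13. Ccnb2 was 0.11 and 0.065 above, Cks1b was level at 0.0069 and -0.0023, and Top2a (-0.077 and -0.037) and Hmgb2 (-0.12 and -0.16) were below. In the HSC-like cluster 9 of these 10 genes were below other cells in both libraries, most of all Cks2 at 517 CPM with vehicle (-0.44) and 573 CPM with DFO (-0.33). The exception was Cenpa, at -0.090 and 0.0056.

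The clusters also differed in how their cells fell into the ranges, and the part of this in the medians above was not tested. Of HSC-like cells, 35.7% with vehicle and 27.4% with DFO lay in the reference range, against 10.2% to 14.8% in clusters 0 to 3 over both libraries. The shares were 34.5% and 27.7% in the shallow cluster 5 and 18.2% and 22.4% in cluster 6. Yet 14.5% (12.3 to 16.9) and 12.2% (10.3 to 14.3) of HSC-like cells had 50 or more late molecules, the highest point value of the 7 clusters in each library. The intervals overlapped those of cluster 1, at 12.6% (11.1 to 14.2) and 10.7% (9.39 to 12.2). In the megakaryocyte-like cluster the order was the other way round, with a higher median late sum (22 molecules against 11 with vehicle and 12 with DFO in HSC-like cells) but 9.10% (7.63 to 10.8) and 7.67% (6.01 to 9.63) of cells at 50 or more.

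Ect2, Kif23 and Ckap2l did not follow the other members in the megakaryocyte-like cluster. Ect2 encodes the exchange factor that activates RhoA at the cleavage furrow. It was at 7.69 CPM (6.99 to 8.45) in megakaryocyte-like vehicle cells and at 32.1 CPM (31.3 to 32.9) in the other vehicle cells, a difference of -1.93, and with DFO at 9.14 CPM (8.15 to 10.2) and 31.0 CPM (30.3 to 31.7), or -1.66. In every other cluster Ect2 was between 22.8 and 37.1 CPM, so no other cluster came near the megakaryocyte-like level.

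Kif23 was at 28.1 CPM (26.8 to 29.6) in megakaryocyte-like and 50.6 CPM (49.6 to 51.6) in other vehicle cells (-0.82), and at 32.5 CPM (30.6 to 34.5) and 54.6 CPM (53.7 to 55.5) with DFO (-0.73). Next lowest was cluster 1, at 37.2 and 41.2 CPM, and the HSC-like cluster was highest at 63.2 and 74.8 CPM. Past -0.5 in both libraries were these 2 members, where 12.0% of all genes were with vehicle and 9.76% with DFO.

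Ckap2l went the other way. It was at 206 CPM (203 to 210) in megakaryocyte-like and 52.2 CPM (51.2 to 53.2) in other vehicle cells, or 1.96, and at 151 CPM (147 to 155) and 47.4 CPM (46.6 to 48.3) with DFO, or 1.65. It was the only member past 0.5 in both libraries, where 5.48% and 5.4% of all genes were. In the HSC-like cluster Kif23 was the only member past 0.5 in both libraries (8.9% and 7.02% of all genes were), at 0.52 and 0.59. Ckap2l was the only one past -0.5 in both (3.88% and 2.7%), at -1.12 and -0.55. The other cells of that comparison include the megakaryocyte-like cluster. Ckap2l was at 40.9 and 41.8 CPM in HSC-like cells, close to cluster 0 (44.2 and 42.8 CPM) and cluster 2 (45.9 and 43.3 CPM). In cluster 6 it was at 45.0 and 32.4 CPM. A low Ckap2l particular to HSC-like cells is thus not read from these values.

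**Figure D5:**
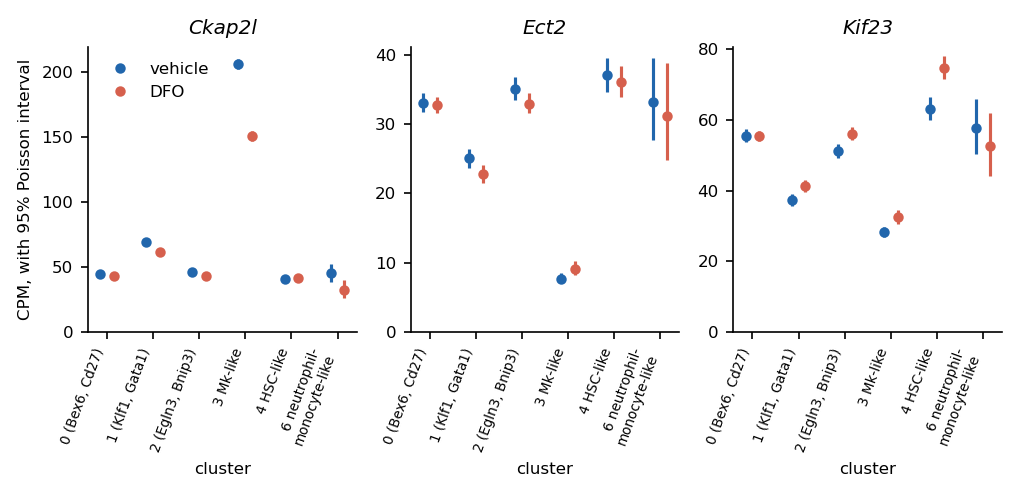
CPM of Ckap2l, Ect2 and Kif23 (y axis, from 0) summed over the cells of 6 clusters (x axis), in vehicle (blue) and DFO (red), with 95% Poisson intervals. The megakaryocyte-like cluster is highest for Ckap2l (206 and 151 CPM) and lowest for Ect2 (7.69 and 9.14 CPM) and Kif23 (28.1 and 32.5 CPM).

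These differences were also present when middle and top cells were pooled, without matching cells by place within those ranges. Top cells were 2.79% of megakaryocyte-like cells with vehicle and 4.18% with DFO. Other clusters, the shallow one left out, had 3.03% to 5.54% and 2.04% to 5.71%. From the middle to the top range Ect2 differed by 0.50 and 0.34 and Kif23 by 0.47 and 0.41. Cep55, low in megakaryocyte-like cells, was among the late anchors. The part of place within the ranges was not tested. Among middle and top cells, Ect2 was at 10.9 CPM (9.36 to 12.7) in 346 megakaryocyte-like and 56.6 CPM in 1589 other vehicle cells (-2.27), and at 14.4 and 52.0 CPM with DFO (-1.78). Kif23 differed by -0.87 and -0.69 and Ckap2l by 1.46 and 1.16, while the median member differed by -0.12 and -0.056. Nusap1 was lower there too, by -0.57 and -0.58. In the same ranges HSC-like cells had Kif23 at 133 CPM against 82.5 in other vehicle cells and at 141 against 88.9 with DFO. Ect2 was at 72.1 against 43.8 and at 68.7 against 45.0 CPM. Those other cells include the megakaryocyte-like cells, which were low for both genes. Over whole clusters, Ect2 was at 37.1 and 36.1 CPM in HSC-like cells. It was at 33.1 and 32.8 CPM in cluster 0, 35.2 and 33.0 CPM in cluster 2 and 25.1 and 22.8 CPM in cluster 1.

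Of the cytokinesis genes, not all were low. Anln, the actin-bundling furrow protein, was level in megakaryocyte-like cells (0.0061 and 0.038) and Kif20b was at -0.23 and -0.16. Of 13 other kinesin and cytokinesis genes outside the list, Cep55 was low as well, at 10.8 CPM (9.99 to 11.7) against 28.0 CPM with vehicle (-1.29) and 14.0 against 29.6 CPM with DFO (-1.03). Over all cells the remaining 12, which include Prc1, Racgap1 and Cit, lay between -0.10 and 0.29. Racgap1, the direct partner of Kif23 in centralspindlin, was at 58.8 against 63.0 CPM with vehicle (-0.098). Among middle and top cells alone, these 12 ran from -0.36 (Kifc1) to 0.072 (Kif18b) with vehicle. With DFO they ran from -0.23 (Kifc1) to 0.080 (Kif14). Racgap1 was there at -0.32 and -0.18 and Kif20b at -0.36 and -0.20, where the median member was at -0.12 and -0.056. Cells were also chosen by the top 10% of summed megakaryocyte markers in place of the cluster. Among them Ect2 was at -1.92 and -1.30, Kif23 at -0.81 and -0.68 and Ckap2l at 1.93 and 1.53. The cut was a marker sum of 41 with vehicle and 15 with DFO, and 112 and 348 cells lay within 2 of it. The markers also named the cluster, so the choice by markers is no independent check.

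The nearest protein-coding neighbours of these 3 genes were looked up after their values were seen. Ckap2l lies on chromosome 2 (129268210 to 129297212, minus strand, GRCm38), and 2398 bases upstream, on the same strand, lies Il1a. Il1a was at 2.22 CPM in megakaryocyte-like and 0.0489 CPM in other vehicle cells, and at 2.82 and 0.01998 CPM with DFO. Il1b, the next gene on that side, was at 18.5 and 0.807 CPM with vehicle. Ect2 lies on chromosome 3 (27097222 to 27153878, minus strand), with Nceh1 29087 bases upstream on the other strand at 10.2 CPM in megakaryocyte-like and 36.0 CPM in other vehicle cells. Kif23 lies on chromosome 9 (61915905 to 61946774, minus strand), with Paqr5 6707 bases upstream on the same strand at 0.496 and 6.89 CPM. The 3 nearest upstream neighbours differed in the direction of the member in both libraries. Of all genes 44.8% were higher and 45.3% lower in both, and Il1a was below 5 CPM. On the other side, Rplp1, 1363 bases from Kif23, was at 4509 and 5077 CPM, and Slc20a1, 56594 bases from Ckap2l, at 48.1 and 20.6 CPM. Among genes further out, Chchd5 near Ckap2l differed against its direction, by -0.54 with vehicle and -0.41 with DFO. Tnfsf10 near Ect2 was at -0.66 and -0.52. Near Kif23, Tle3 was at -0.37 and 0.25 and Glce at 0.034 and 0.20.

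Because the megakaryocyte-like share was 15.8% with vehicle and 9.18% with DFO, the same 3 genes were read again within clusters. Ckap2l was lower with DFO in the megakaryocyte-like cluster itself, at 206 and 151 CPM (-0.45, intervals apart), and in cluster 1, at 69.2 and 61.8 CPM (-0.16, intervals apart). In clusters 0, 2 and 4 it differed by -0.043, -0.082 and 0.031 with overlapping intervals, and in cluster 6 by -0.46 with overlapping intervals. In the shallow cluster 5 it differed by -0.73 with intervals apart. Ect2 was higher with DFO over all cells (26.8 and 28.4 CPM, 0.080) but lower, at -0.048, without the megakaryocyte-like cluster. Within clusters its intervals overlapped in 7 of 7. Kif23 was 0.11 higher without that cluster, against 0.18 with it, and in the HSC-like cluster it was at 63.2 and 74.8 CPM (0.24, intervals apart).

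Some members differed in the same direction in every cluster. With DFO, 12 members (23.5%) were higher in all 7 clusters, where 16.3% of all genes were. Lower in all 7 were 5 members (9.8%), near the 8.27% of all genes. Those lower in all were Cenpe, Cenpf, Tpx2, Mki67 and Kif20b. Those higher in all included Hmgb2, Anp32e, Tmpo and Cbx5 of chromatin and envelope, Aurkb and Cdca8 of the passenger complex, and Cdc20. Hmgb2 differed by 0.17 to 0.35 with intervals apart in 7 of 7 clusters. Clusters of 1 library share its depth and culture, so 7 clusters are not 7 replicates.

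In the HSC-like cluster most early genes were higher with DFO. There 14 of 15 were, with a median of 0.10, where 54.5% of all genes were higher. Of HSC-like cells, 35.7% with vehicle and 27.4% with DFO lay in the reference range by each library's own limits. The part of this in the early-gene values was not tested. The highest members there were Gtse1 at 5.34 and 7.19 CPM (0.37, intervals overlapping), Hmgb2 at 1106 and 1340 CPM (0.28) and Kif23. The lowest were Psrc1 at 30.7 and 27.5 CPM (-0.15), Cenpf at 170 and 158 CPM (-0.11) and Dlgap5 at 34.1 and 31.7 CPM (-0.10). Of its 51 members, 12 were higher and 1, Cenpf, lower with intervals apart, against 11.2% and 6.93% of all genes. In the megakaryocyte-like cluster 26 of 51 members were higher, where 61.3% of all genes were, and 12 were higher and 10 lower with intervals apart, against 19.9% and 9.48%. The highest were Psrc1 at 18.9 and 25.9 CPM (0.44), Gtse1 (0.25) and Ect2 (0.22), and the lowest Ckap2l, Ndc80 (-0.14) and Ube2c at 500.4 and 457 CPM (-0.13). Whether these clusters differ from each other in their response was not tested.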

How the data were processed

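The labels describe single-cell libraries made with the 10x Genomics 3′ v3 kit, 1 for vehicle and 1 for DFO. The submitters' processing notes name FastQC 0.11.9, Trim Galore 0.6.5, Cell Ranger 3.0.2 and the build mm10. For the cell filter and the handling of strand and shared reads, nothing is given in the sources used here. The deposited values are natural log values, ln(1 + 27408 × molecules of the gene over all molecules of the cell), as read from the values themselves. Whole molecules were recovered for 100% of nonzero values (within 0.05), and the recovered counts were used for all sums from the deposited tables. Libraries held 260938938 and 284326017 molecules.

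Counts were summed over cells of a library, range or cluster and given as CPM with exact 95% Poisson intervals, and shares of cells with exact Clopper-Pearson intervals. These cover counting error only. Differences are log2 of CPM + 1 for features with a mean of at least 5 CPM. The counts for pathway lists outside the members also hold 1 gene below that level. With 1 library per group no test was run. Sums per cell, ranges and correlations used cells thinned to 10000 molecules. Clusters came from scanpy 1.11.5 (2000 variable genes, 30 components, 15 neighbours, Leiden resolution 0.5), without members and genes that follow the cycle. The doublet caller had not worked, so no cell was removed in the main analysis. The summing step recovered 200 of 200 changed genes in simulated data. The simulation held counting error only, with changes larger than those of most members. It checks the arithmetic and says nothing about variation between cultures. Python 3.11.15, numpy 2.4.6, scipy 1.17.1 and pandas 2.3.3 were used.

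The members and lists were chosen with earlier results of these data known. Values were given for the 3 highest and 3 lowest members of a comparison and for Cdk1, Ccnb2, Top2a, Mki67, Cdc20, Aurka, Cenpa, Hmgb2, Cks1b and Cks2. Alternatives were another scaling, thinning, means over cells, equal cluster shares, stricter filters, other pseudocounts, other cluster resolutions, and runs without likely doublets. Runs without the shallow or the megakaryocyte-like cluster and with the vehicle range limits in both libraries were chosen after seeing the data. Promoter sequences are from RefSeq (GRCm38.p6) and gene positions from GENCODE M21.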

Additional observations from a re-analysis of the deposited data

Results flagged for a closer look

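Hjurp, the chaperone that loads Cenpa, differed between the libraries in opposite directions in 2 clusters, with counting intervals apart in both. In cluster 1 it was at 113 CPM with vehicle and 103 CPM with DFO (-0.127), and in the shallow cluster 5 at 145 and 170 CPM (0.230). Tacc3, a spindle protein, was at 89.9 and 96.1 CPM in cluster 1 (0.0955) and at 106 and 100 CPM in the megakaryocyte-like cluster (-0.0847). With 1 library per condition, the difference between clusters was not tested in either case.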

How the results depend on the processing

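No paired analysis was possible because each group has 1 library. The median member difference between the libraries was 0.0079, and -0.0112 with median size factors. The early median was 0.025, and 0.0501 in thinned cells. The late median of -0.00029 changed sign with means over cells (0.0056), thinning (0.0104), equal cluster shares (0.00033), the stricter cell filter (0.00018), without likely doublets (0.0105) and without the shallow cluster (0.0045). The late minus early difference from the middle to the top range with DFO was 0.238, and 0.1818 with the top 10% of cells and 0.1810 without Plk1, Ccnb1 and Kif20a among the anchors. The HSC-like median with vehicle was -0.1411, and -0.0696 at resolution 0.25, -0.2269 in thinned cells and -0.8985 with cell cycle genes kept in. With DFO it was -0.0849, and 0.0159 at resolution 1.0 and -0.7886 with cell cycle genes kept in, so no firm size is read from it. Other resolutions and kept-in cell cycle genes also change which cells are called HSC-like, as given above. The megakaryocyte-like medians of 0.1011 and 0.0931 were 0.0476 and 0.0348 with those genes kept in, which gave no neutrophil-monocyte-like cluster. The neutrophil-monocyte-like median with vehicle was -0.1205, and -0.3108 by the top 10% of marker sums. The share of cells high for late genes differed by -1.51 to -0.864 percentage points under its alternatives. Of 510 values for single members, 24 in 11 of 51 members changed sign. With size factors these were Cdk1 (-0.0022), Psrc1 (-0.0186), Gas2l3 (-0.0018), G2e3 (-0.0112) and Anln (-0.0029). In thinned cells they were Kif11 (0.0501), Psrc1 (-0.0593), Bub1 (0.0283) and Anln (-0.0418), and with means over cells Psrc1 (-0.0606), Cdca3 (0.0098), Bub1 (0.0015) and Cdca2 (0.0022). Equal cluster shares gave Psrc1 -0.0028, Cdca3 0.0035, Ect2 -0.0348 and Bub1 0.0128. Bub1 was at 5.3e-05 with the stricter filter, 0.0137 without likely doublets and 0.0035 without the shallow cluster. Without the megakaryocyte-like cluster Psrc1 was at -0.0923, Cdca3 at 0.0064, Ect2 at -0.0477 and Tacc3 at 0.0047. The causes were not tested.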
